A study of Mus musculus with 12 samples.

Results

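The genes described here build and run the lysosome and the autophagy pathway that feeds it. They were read in MC38 cells, an established mouse colon adenocarcinoma line, by RNA sequencing. The set was a list of 42 gene symbols, matched to the symbols of the deposited expression table, and 41 of the 42 had an entry among 42329. The list was chosen with earlier results of these data known, so comparisons with all genes describe it and are no independent test. They fall into 5 regulators, 13 lysosomal membrane proteins and enzymes, 9 subunits of the proton pump V-ATPase and 15 autophagy genes. Map1lc3b had no entry under that symbol and was not analysed here. Rragd stayed below the filter on low values, so 40 members were tested, and 38 of them reached 1 FPKM (fragments normalised for gene length and library size) in all 12 libraries. The exceptions were Mitf and Optn.

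The guide RNA in the cells was a control, labelled sgControl, or targeted the lactate receptor gene Hcar1, labelled sgHcar1. Each population received PBS, the vehicle, or 20 mM lactate for 24 h, with 3 libraries in each of the 4 groups. The labels do not say whether the sgHcar1 population is 1 clone or a pool, or whether libraries within a group are from separate cultures, so p-values measure only the spread between these libraries. Hcar1 itself was listed at 0 in 11 of the 12 libraries and reached at most 0.0196 FPKM, so its level does not check the guide labels.

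The lysosome is the acidic compartment in which cells degrade proteins, lipids and glycans, and the V-ATPase pumps protons into it. In autophagy, cytoplasm is enclosed in a double membrane and delivered to the lysosome. Ulk1, Becn1 and Wipi1 act at the start, the Atg3, Atg5, Atg7 and Atg12 conjugation machinery attaches proteins of the Atg8 family (LC3 and GABARAP proteins) to the membrane, and receptors such as Sqstm1, Nbr1 and Optn bind cargo. The transcription factors TFEB, TFE3 and MITF bind E-box motifs near many of these genes, and are held in the cytoplasm by the kinase mTORC1 when nutrients are plentiful. Folliculin, encoded by Flcn, takes part in that control through the Rag GTPases. In tumour cells this system recycles nutrients.

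Because these factors read an E-box, the promoters of the members were searched for its core. RefSeq promoter windows on GRCm38.p6, from 250 bases before to 50 bases after the start of the gene, were present for 35 of the 42 members. CACGTG, a palindrome that reads the same on both strands, occurred in 12 of these 35 genes (34.3%) and in 8.09% of the 27025 genes of the whole RefSeq table. The longer TCACGTGA, which contains CACGTG and is also a palindrome, occurred in 7 of 35 (20%) and in 1.12% of all genes. The antioxidant response core TGACNNNGC, searched on both strands, occurred in 7 of 35 (20%) and in 14% of all genes. Counted per window, CACGTG was present in 7 of 13 lysosome, 2 of 6 V-ATPase, 3 of 13 autophagy and 0 of 10 regulator windows. A match is a description of the letters and not a binding site. The list holds many genes near which these factors are known to bind, and the comparison set was all RefSeq genes, not the genes tested here. Control of the members by these factors was therefore not tested by these shares. The following stretches upstream of the start show CACGTG or TCACGTGA in capitals for a lysosomal membrane protein, a lysosomal enzyme, a pump subunit and a conjugation enzyme, read 5′ to 3′ on the strand of the gene.
Lamp1, chr8:13159061-13159160, plus strand: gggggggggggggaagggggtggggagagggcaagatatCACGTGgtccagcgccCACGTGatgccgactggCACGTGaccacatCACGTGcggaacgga
Gaa, chr11:119267787-119267886, plus strand: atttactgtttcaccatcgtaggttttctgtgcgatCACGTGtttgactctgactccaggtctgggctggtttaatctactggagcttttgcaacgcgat
Atp6v1a, chr16:44139340-44139439, minus strand: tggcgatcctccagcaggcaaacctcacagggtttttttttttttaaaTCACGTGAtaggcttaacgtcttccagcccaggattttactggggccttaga
Atg3, chr16:45158707-45158784, plus strand: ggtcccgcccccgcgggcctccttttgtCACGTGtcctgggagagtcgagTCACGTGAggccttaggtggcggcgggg
The 4 stretches differ in how many copies they hold, and the Lamp1 stretch holds the most of these 4. No match to any of the 3 motifs lay in the windows of Sqstm1 or Gabarapl1, whose lactate effects are given below.

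The libraries were alike within groups, with correlations of log2(FPKM + 1) of 0.990 to 0.992 within groups and 0.765 to 0.947 between groups. The files give no counts, so depth in reads is unknown, and the relative depth recovered from the smallest steps in the values was 0.746 to 1 of the deepest library, lowest in sgHcar1 cells with lactate at 0.746 to 0.793. The colon and epithelial markers Epcam and Cdx2 were listed at 0 in all 12 libraries, so these defining markers of the labelled tissue were absent. Among the colon and epithelial markers, 3 of the 9 with an entry passed the filter, and their summed level ran from 3.16 to 5.41 FPKM in the sgControl libraries, against 44.9 to 114 FPKM in the sgHcar1 libraries. Krt18 made up nearly all of the latter, with means of 46.2 and 112.5 FPKM without and with lactate, whereas Cdh1 (1.72 and 4.53 FPKM in sgControl cells) and Krt19 (1.31 and 0.300 FPKM) were listed at 0 in all sgHcar1 libraries. Of 7 leukocyte and macrophage markers 1 passed, Cd68, a protein of lysosomal membranes, while Ptprc stayed at or below 0.0063 FPKM, and their summed level was 1.39 to 6.94 FPKM. No endothelial marker of 4 passed, and Pecam1 stayed at or below 0.473 FPKM. The sum of 7 fibroblast markers, of which Thy1 and Lum were listed at 0, was 119.9 to 149.9 FPKM in 3 groups and 65.9 to 72 FPKM in sgHcar1 cells with lactate. Its parts differed by population in opposite directions: with PBS, Col3a1 averaged 67.2 FPKM in sgControl cells against 1.55 FPKM in sgHcar1 cells, and Col1a2 45.5 and 114.6 FPKM. The part of these marker differences in the results was not tested.

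Lactate raised most of these genes in sgControl cells. On the log2(FPKM + 1) scale the messenger RNA of the autophagy receptor Sqstm1 rose most, followed by the Atg8-family gene Gabarapl1 and by Flcn. The members that passed the test in the other direction were Lamp1 and Atp6ap1, at 0.943 and 0.925 of the PBS level. By limma's moderated test on log2(FPKM + 1), with Benjamini-Hochberg adjustment over all 13736 genes tested and a threshold of 0.05, 30 members were higher with lactate, 2 were lower and 8 did not pass. Of all genes tested, 65.7% passed, 33.9% higher and 31.9% lower, beside 80% of the members. The median log2 change was 0.32 over the members and 0.00095 over all genes tested. At least a 2-fold change of FPKM + 1 in the same test was reached by 3 members, all higher, and by 7.21% of all genes, 4.26% higher and 2.95% lower. Mitf (mean 0.513 and 1.75 FPKM without and with lactate) and Neu1 (3.82 and 8.59 FPKM) are not among the 3. By mean FPKM itself, Mitf rose by a larger factor than Gabarapl1 (26.2 and 74.2 FPKM) and Flcn (20.1 and 50.4 FPKM). Later counts of members past 2-fold are also of FPKM + 1.

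In sgHcar1 cells the same treatment gave more members higher and a larger median, although under equal-sum scaling the counts of higher members were 31 in sgControl and 29 in sgHcar1 cells. Here Gabarapl1, Sqstm1, the lysosomal glycosidase gene Gla, Atg12, Flcn and Nbr1 had the largest rises. Of the 40 members, 34 were higher, 2 were lower and 4 did not pass, 1 of which is Optn, listed at 0 in all sgHcar1 libraries and so without a value to test, against 72.2% of all genes called, 36.8% higher and 35.4% lower. The median log2 change was 0.68 over the members and 0 over all genes, and 13 members rose at least 2-fold, against 8.83% of all genes (15.0% in either direction and 6.16% lower). Across both populations 28 members were higher with lactate in each, 1 (Atp6ap1) was lower in each, and Lamp1 was lower in sgControl and higher in sgHcar1 cells. Of all genes tested, 23.1% were higher in both, 21.5% lower in both and 7.43% called in opposite directions. Neither Ctsa nor Ulk1 passed in either population.

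**Figure D1:**
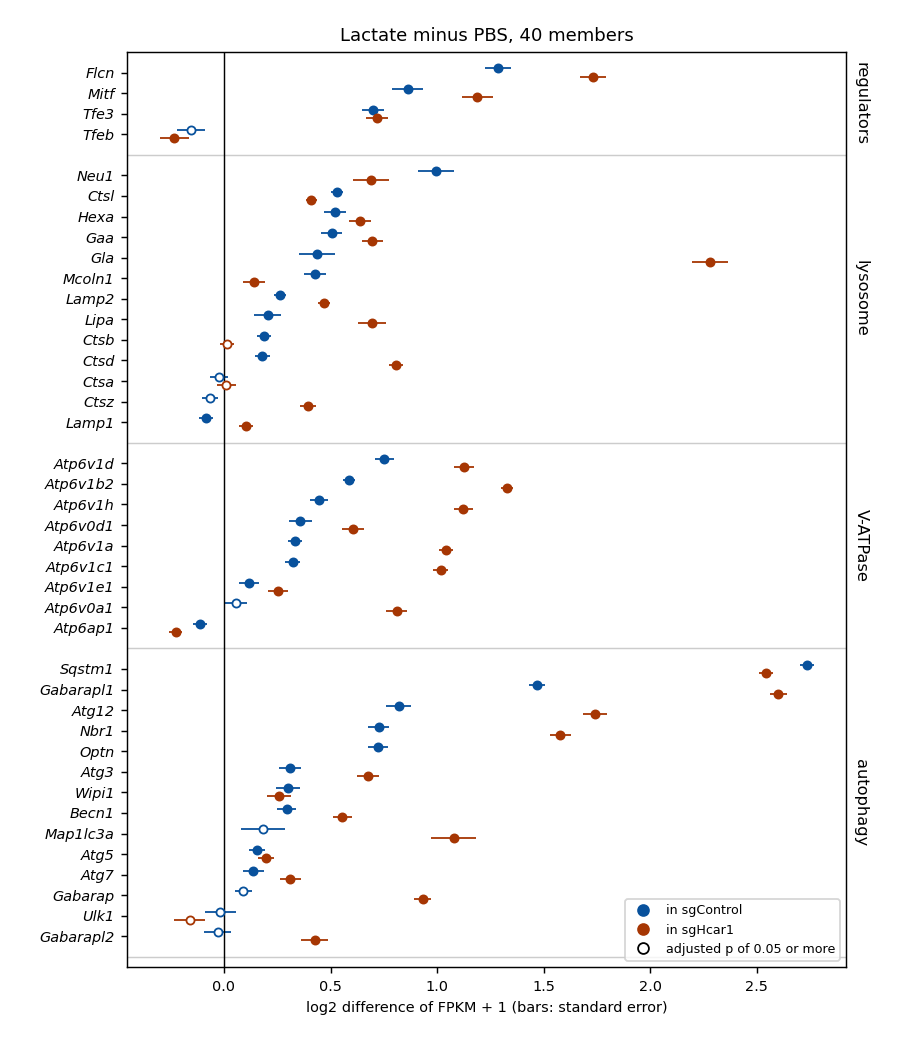
Log2 change of FPKM + 1 with lactate against PBS for the 40 tested members, grouped by role, in sgControl and in sgHcar1 cells; bars are standard errors from the model, filled points passed the threshold and open points did not. Optn has no sgHcar1 point because it is listed at 0 in those libraries. Most points lie to the right of 0, Sqstm1 and Gabarapl1 lie farthest right, and 8 of the 9 V-ATPase genes lie farther right in sgHcar1 than in sgControl cells, Atp6ap1 being the exception.

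The 4 roles moved in the same direction but not by the same amount. In sgControl cells, 10 of 14 autophagy genes were higher and none lower, beside 17 higher and 2 lower of 22 lysosome and V-ATPase genes, and the median log2 changes were 0.30 and 0.33. In sgHcar1 cells, 12 of 14 autophagy genes (Optn among the 14) were higher and none lower, beside 19 higher and 1 lower of 22, with medians of 0.62 and 0.66. The V-ATPase genes alone had a median of 0.33 in sgControl and 1.02 in sgHcar1 cells, and the lysosome genes 0.26 and 0.47. The 4 tested regulators had medians of 0.78 and 0.95. The largest single changes belonged to autophagy genes. In sgHcar1 cells the pump median was above that of the regulators, but below it with equal-sum scaling (0.841 and 0.917) and quantile normalization (0.837 and 0.947). No test compared the roles with each other.

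Among the regulators, Tfeb messenger RNA was low and did not rise. It measured 1.5, 1.18 and 1.30 FPKM in sgControl cells with PBS and 1.1, 1.06 and 1.11 FPKM with lactate. In sgHcar1 cells it measured 2.85, 3.01 and 3.03 FPKM with PBS and 2.12, 2.58 and 2.42 FPKM with lactate. The lactate libraries were lower in both populations without overlap. The log2 change was -0.15 ± 0.07 (SE; limma adjusted p = 0.0647) in sgControl and -0.23 ± 0.07 (limma adjusted p = 0.00889) in sgHcar1 cells, so that only the latter passed. The adjusted p in sgControl cells was 0.0451 with a pseudocount of 0.1 and 0.031 without sgControl PBS replicate 2.

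Tfe3, the related factor, was the most abundant of the 3 in each group and rose with lactate. It measured 10.5, 10.02 and 9.51 FPKM with PBS and 16.7, 17.3 and 16.7 FPKM with lactate in sgControl cells. In sgHcar1 cells the values were 4.60, 4.62 and 5.02 FPKM with PBS and 8.96, 7.91 and 8.48 FPKM with lactate. The rises were nearly equal, 0.70 ± 0.05 and 0.72 ± 0.05 on the log2 scale, while sgHcar1 libraries lay below sgControl libraries in each treatment.

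Mitf, the third factor of the family, rose from 0.576, 0.400 and 0.564 FPKM to 1.79, 1.76 and 1.70 FPKM in sgControl cells. In sgHcar1 cells it rose from 1.92, 1.75 and 1.98 FPKM to 4.96, 5.76 and 6.03 FPKM. Its sgHcar1 libraries with PBS were thus close to its sgControl libraries with lactate. Log2 rises of 0.86 ± 0.07 and 1.19 ± 0.07 are on the log2(FPKM + 1) scale, which understates changes at such low levels. The understatement is greater in sgControl cells, where Mitf was lower, and by mean FPKM the fold rise was smaller in sgHcar1 cells.

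Flcn, the gene of folliculin, rose at least 2-fold with lactate in both populations. In sgControl cells the libraries measured 19.6, 19.6 and 21.0 FPKM with PBS and 50.1, 51.4 and 49.7 FPKM with lactate. In sgHcar1 cells they measured 7.73, 7.59 and 9.19 FPKM with PBS and 30.0, 28.0 and 30.1 FPKM with lactate. The groups did not overlap, with sgHcar1 lower in each treatment, and the log2 rises were 1.29 ± 0.06 (limma adjusted p = 1.01e-08) and 1.73 ± 0.06 (limma adjusted p = 5.2e-10). Rragd, a Rag GTPase gene, was at most 0.0299 FPKM in any library and has no test.

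The list of 21 other nutrient-sensing genes, of which 19 were tested, split evenly in sgControl cells, with 8 higher and 8 lower, and gave 9 higher and 8 lower in sgHcar1 cells. All genes tested also split nearly evenly, with 33.9% higher and 31.9% lower in sgControl and 36.8% and 35.4% in sgHcar1 cells. The folliculin partner Fnip1 rose by 1.00 ± 0.04 in sgControl and 2.04 ± 0.04 in sgHcar1 cells on the log2 scale. Sesn2, the gene of a stress-induced leucine sensor, rose by 2.36 ± 0.08 in sgControl cells, from 2.94 ± 0.287 to 19.2 ± 1.02 FPKM (SD, n = 3). In sgHcar1 cells Sesn2 went from 28.9 ± 1.78 to 46.6 ± 4.67 FPKM. Fnip2 rose by 0.95 ± 0.05 in sgControl and 1.26 ± 0.05 in sgHcar1 cells. Genes of this list that fell included Lamtor1, an anchor of mTORC1 regulation on the lysosome, with -0.73 ± 0.04 in sgControl and -1.11 ± 0.04 in sgHcar1 cells. Depdc5, a subunit of the GATOR1 complex, fell by 0.43 on the log2 scale in sgControl cells, and went from 3.79 to 3.06 FPKM in sgHcar1 cells. Lamtor4 changed by -0.35 in sgControl and -0.71 in sgHcar1 cells.

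Among the lysosome genes, Gla had the largest lactate effect in sgHcar1 cells and the largest difference between populations, while in sgControl cells Neu1, Ctsl, Hexa and Gaa rose by more. Gla encodes alpha-galactosidase A, which removes terminal galactose from glycolipids. It measured 7.37, 6.91 and 7.31 FPKM in sgControl cells with PBS and 9.40, 9.88 and 11.1 FPKM with lactate. The sgHcar1 libraries measured 6.48, 6.70 and 5.92 FPKM with PBS and 33.4, 31.4 and 40.1 FPKM with lactate. The sgHcar1 lactate libraries stood above all other 9 libraries. The log2 rise was 0.44 ± 0.08 (limma adjusted p = 0.000874) in sgControl and 2.28 ± 0.08 (limma adjusted p = 8.87e-10) in sgHcar1 cells. Its RefSeq promoter window held TCACGTGA at 228 and 195 bases before the start and overlaps an annotated exon of the neighbouring gene Hnrnph2. Whether the authors' counting used strand is not given in the sources used here, and any effect of this neighbour on the Gla values was not tested.

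Neu1, the lysosomal sialidase gene, rose in both populations. It went from 3.64, 3.69 and 4.12 FPKM to 9.15, 8.52 and 8.11 FPKM in sgControl cells. In sgHcar1 cells it went from 1.90, 2.39 and 2.39 FPKM to 4.76, 3.77 and 4.09 FPKM. The log2 rises were 0.99 ± 0.09 and 0.69 ± 0.09.

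Lamp1 encodes an abundant glycoprotein of the lysosomal membrane and moved little with lactate. It measured 322, 314 and 315 FPKM in sgControl cells with PBS and 293, 289 and 315 FPKM with lactate. For sgHcar1 the values were 206, 207 and 204 FPKM with PBS and 219, 217 and 227 FPKM with lactate. In sgControl cells the ranges met at the highest lactate library, and the log2 change of -0.09 ± 0.03 (limma adjusted p = 0.0428) was no longer called when any of 9 of the 12 libraries was left out, with adjusted p of 0.0535 to 0.156. The log2 change of 0.10 ± 0.03 (limma adjusted p = 0.0168) in sgHcar1 cells missed the threshold without sgHcar1 lactate replicate 3 (adjusted p = 0.0653). Its direction also turned with the scaling, to 0.12 in sgControl with quantile normalization and to -0.08 in sgHcar1 cells with quantile normalization or with each library rescaled to a sum of 1000000.

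Of the cathepsins, the proteases of the lumen, Ctsl was the most abundant, with 419 ± 9.33 FPKM in sgControl cells with PBS and 606 ± 9.25 FPKM with lactate (SD, n = 3). The corresponding sgHcar1 values were 756 ± 6.41 FPKM with PBS and 1005 ± 14.9 FPKM with lactate. Ctsl was the sole lysosome gene among the members that was higher in sgHcar1 than in sgControl cells with PBS. Ctsd, an aspartic protease gene, rose by 0.18 ± 0.03 on the log2 scale in sgControl cells and by 0.81 ± 0.03 in sgHcar1 cells, where it went from 98.5, 103 and 101 FPKM to 182, 170.4 and 179.9 FPKM. Ctsz passed in sgHcar1 cells alone, and Ctsb in sgControl cells alone. Ctsa, the gene of a carboxypeptidase that also protects the sialidase Neu1, held at 52.0 ± 0.579 and 51.1 ± 1.14 FPKM in sgControl and at 20.6 ± 0.618 and 20.8 ± 1.46 FPKM in sgHcar1 cells without and with lactate.

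The remaining lysosome members all rose in both populations. Their log2 changes in sgControl cells were 0.26 for Lamp2, a lysosomal membrane protein used in chaperone-mediated autophagy, 0.51 for the acid glucosidase gene Gaa, 0.52 for Hexa, which cuts gangliosides, 0.21 for the acid lipase gene Lipa and 0.43 for the calcium channel gene Mcoln1. In sgHcar1 cells they were 0.47, 0.70, 0.64, 0.69 and 0.14 in the same order. Mcoln1 was the weakest there, with overlapping libraries (limma adjusted p = 0.0265), and its direction turned when each library was rescaled to an equal sum.

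The 38 other lysosome genes, of which 34 were tested, were less one-sided. With lactate 19 were higher and 10 lower in sgControl cells, and 16 higher and 13 lower in sgHcar1 cells, with medians of 0.14 and 0.05. Of all genes tested, 33.9% were higher and 31.9% lower in sgControl cells. The shares in sgHcar1 cells were 36.8% and 35.4%, and the medians over all genes were 0.00095 and 0. Npc1, the cholesterol exporter gene, rose by 1.33 ± 0.05 and 1.14 ± 0.05. Gpnmb, a glycoprotein gene, rose by 0.91 ± 0.03 in sgControl cells. Genes of glycosaminoglycan-degrading enzymes went the other way. Gusb changed by -0.99 ± 0.05 and -1.34 ± 0.05, and Arsb by -0.78 ± 0.06 and -1.36 ± 0.06, in sgControl and sgHcar1 cells. At these values Gusb fell from 9.21 ± 0.266 to 4.14 ± 0.136 FPKM in sgControl and from 7.86 ± 0.0812 to 2.52 ± 0.236 FPKM in sgHcar1 cells (SD, n = 3).

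The V-ATPase has a peripheral sector that splits ATP (V1) and a membrane sector that carries protons (V0). Of 9 pump members, 7 were higher and 1 lower with lactate in sgControl cells, and 8 higher and 1 lower in sgHcar1 cells, where 5 rose at least 2-fold. Atp6v1b2, an ATP-binding subunit of V1, measured 20.8, 20.5 and 20.4 FPKM with PBS and 30.9, 31.9 and 31.5 FPKM with lactate in sgControl cells. In sgHcar1 cells it measured 13.6, 13.8 and 13.5 FPKM with PBS and 36.8, 34.7 and 35.8 FPKM with lactate. Thus sgHcar1 libraries lay below sgControl libraries with PBS and above them with lactate. The log2 rises were 0.59 ± 0.03 (limma adjusted p = 8.55e-09) and 1.33 ± 0.03 (limma adjusted p = 1.06e-11).

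Atp6v1d, a subunit of the central rotor, had the largest guide difference of the pump members. It measured 10.7, 11.8 and 11.4 FPKM with PBS and 19.4, 20.4 and 19.2 FPKM with lactate in sgControl cells. The sgHcar1 libraries measured 36.1, 37.8 and 36.7 FPKM with PBS and 81.2, 77.7 and 86.2 FPKM with lactate. Every sgHcar1 library stood above every sgControl library. Lactate raised it by 0.75 ± 0.04 and 1.13 ± 0.04 on the log2 scale.

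The catalytic subunit gene Atp6v1a and the V1 genes Atp6v1c1 and Atp6v1h had log2 rises of 0.33, 0.32 and 0.45 in sgControl and 1.04, 1.02 and 1.12 in sgHcar1 cells. In FPKM, Atp6v1c1 went from 49.7 ± 1.76 to 102 ± 1.75 in sgHcar1 cells (SD, n = 3). The V0 gene Atp6v0a1 did not pass in sgControl cells, with 6.85 ± 0.44 and 7.17 ± 0.334 FPKM, and rose from 3.75 ± 0.191 to 7.31 ± 0.11 FPKM in sgHcar1 cells. Atp6v0d1 and the stalk gene Atp6v1e1 rose in both, by 0.36 and 0.12 in sgControl and by 0.60 and 0.25 in sgHcar1 cells, with overlapping libraries for Atp6v1e1 in sgControl cells (limma adjusted p = 0.0472). The accessory subunit gene Atp6ap1 fell from 70.4, 69.5 and 67.5 FPKM to 62.4, 62.9 and 66.2 FPKM in sgControl and from 58.7, 61.7 and 57.8 FPKM to 50.9, 50.3 and 50.7 FPKM in sgHcar1 cells. The sgControl fall of Atp6ap1 (log2 change -0.11 ± 0.03, limma adjusted p = 0.00896) did not pass after rescaling to an equal sum (adjusted p = 0.0649) or quantile normalization (adjusted p = 0.0931).

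Of the 14 other V-ATPase genes, 11 were tested, and 7 were higher in each population, with 2 lower in sgControl and 1 lower in sgHcar1 cells. Over all genes tested, 33.9% were higher and 31.9% lower in sgControl cells, and 36.8% and 35.4% in sgHcar1 cells. The proteolipid genes of the proton-carrying ring led in both. Atp6v0b rose by 0.82 ± 0.03 and 1.41 ± 0.03, from 40.5 ± 0.74 to 72.3 ± 0.597 FPKM and from 35.0 ± 0.736 to 95 ± 3.91 FPKM. Atp6v0c rose by 0.84 ± 0.12 and 1.73 ± 0.12 at levels up to 4.15 ± 0.112 FPKM; near-identical pseudogene copies exist, so its level is uncertain. Atp6v1g2 fell by 0.29 and by 0.67 on the log2 scale, and Atp6v0e fell by 0.26 in sgControl cells.

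**Figure D2:**
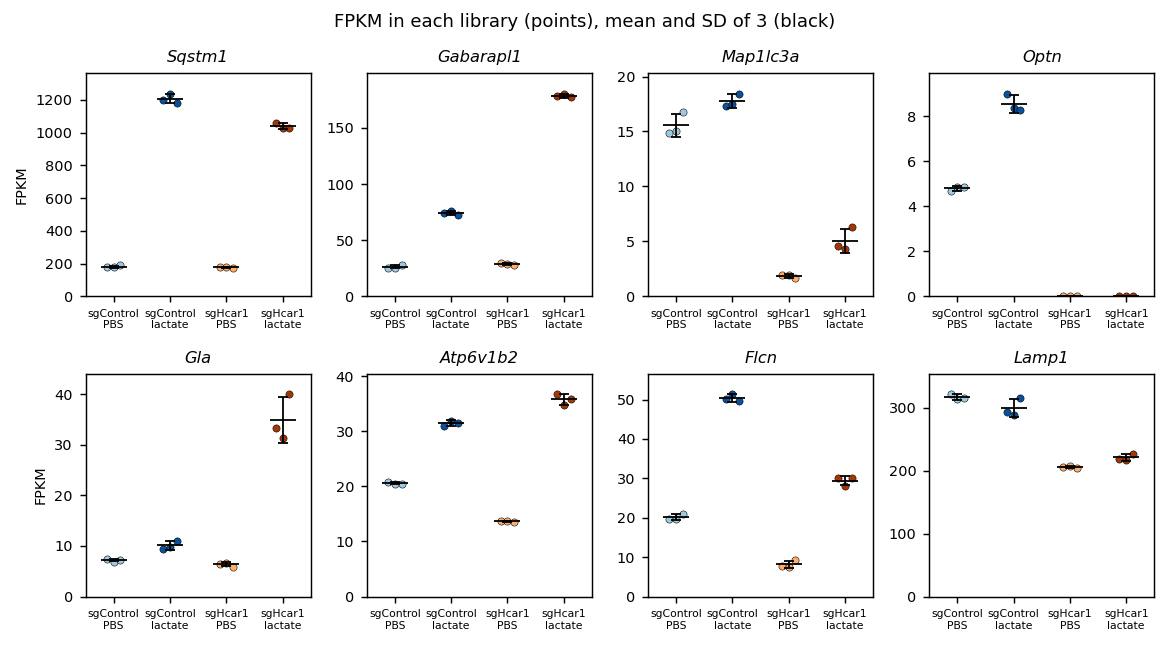
FPKM of 8 members in each of the 12 libraries, by group, on an axis that starts at 0 for each gene; points are libraries, and lines and bars are the mean and SD of 3. Sqstm1 and Gabarapl1 are high in every lactate library, Gla is high in the 3 sgHcar1 lactate libraries, Map1lc3a is low in all sgHcar1 libraries, and Optn is listed at 0 in those 6.

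Of the autophagy genes, Sqstm1 had the largest rise in sgControl cells. Its product p62 binds ubiquitin-tagged cargo and the Atg8-family proteins. It measured 177, 177 and 189 FPKM with PBS and 1200.1, 1239 and 1183 FPKM with lactate in sgControl cells. For sgHcar1 the values were 177, 179.9 and 174 FPKM with PBS and 1059, 1027 and 1028 FPKM with lactate. All 6 lactate libraries were at 1027 FPKM or more and all 6 PBS libraries at 189 FPKM or less. The log2 rises were 2.73 ± 0.03 (limma adjusted p = 8.47e-13) and 2.54 ± 0.03 (limma adjusted p = 9.11e-13), larger in size than those of 99.8% and 99.3% of all genes tested.

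Gabarapl1, an Atg8-family gene, had the largest rise of the members in sgHcar1 cells. It measured 25.5, 25.3 and 27.7 FPKM with PBS and 74.1, 76.1 and 72.5 FPKM with lactate in sgControl cells. The corresponding sgHcar1 values were 29.8, 28.5 and 27.6 FPKM with PBS and 178, 181 and 177 FPKM with lactate. The PBS libraries of both populations overlapped, and the lactate libraries stood apart from them and from each other by population. The log2 rises were 1.47 ± 0.04 (limma adjusted p = 1.31e-10) and 2.60 ± 0.04 (limma adjusted p = 1.97e-12).

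The other members of that family started at different levels in the populations. Map1lc3a, an LC3 gene, measured 14.9, 15 and 16.8 FPKM with PBS and 17.3, 17.5 and 18.5 FPKM with lactate in sgControl cells. In sgHcar1 cells it measured 1.96, 1.93 and 1.64 FPKM with PBS and 4.61, 4.27 and 6.27 FPKM with lactate. All 6 sgHcar1 libraries lay below all 6 sgControl libraries. Its lactate change did not pass in sgControl cells (log2 0.18 ± 0.10, limma adjusted p = 0.149) and was 1.08 ± 0.10 (limma adjusted p = 2.6e-06) in sgHcar1 cells. Gabarap measured 83.1 ± 2.63 and 88.6 ± 3.52 FPKM without and with lactate in sgControl cells, which did not pass, and rose from 50.2 ± 1.92 to 96.7 ± 2.07 FPKM in sgHcar1 cells. Gabarapl2 followed the same pattern, with 23.0 ± 1.13 and 22.6 ± 0.925 FPKM in sgControl and a rise from 7.48 ± 0.747 to 10.4 ± 0.422 FPKM in sgHcar1 cells (SD, n = 3 for each).

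Among the conjugation genes, Atg12, which encodes a ubiquitin-like modifier joined to Atg5, rose most. It measured 15.1, 14.3 and 15.6 FPKM with PBS and 27.4, 27.5 and 26.9 FPKM with lactate in sgControl cells. The sgHcar1 libraries measured 13.9, 13.0 and 12.3 FPKM with PBS and 47.7, 41.9 and 48.5 FPKM with lactate. The lactate libraries of the 2 populations did not overlap, and the log2 rises were 0.82 ± 0.06 and 1.74 ± 0.06. Its partner Atg5 rose by 0.15 and 0.20, the E1-like enzyme gene Atg7 by 0.14 and 0.31, and the E2-like enzyme gene Atg3 by 0.31 and 0.68, each in sgControl and sgHcar1 cells in that order.

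Of the initiation genes, the kinase gene Ulk1 did not pass in either population, with 6.79 ± 0.374 and 6.70 ± 0.362 FPKM in sgControl cells against 6.45 ± 0.664 and 5.65 ± 0.451 FPKM in sgHcar1 cells without and with lactate. Becn1, a subunit of the lipid kinase complex of early autophagosomes, rose by 0.30 and 0.56. Wipi1, which binds the lipid that this complex makes, rose by 0.30 and 0.26.

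The receptor gene Nbr1 rose in both populations. It measured 23.9, 24.4 and 23.6 FPKM with PBS and 42.7, 38.7 and 39.5 FPKM with lactate in sgControl cells. For sgHcar1 the values were 16.0, 14.5 and 14.5 FPKM with PBS and 46.5, 45.0 and 48.8 FPKM with lactate. As with Atp6v1b2, the sgHcar1 libraries were the lower ones with PBS and the higher ones with lactate. Optn, the gene of the receptor optineurin, measured 4.67, 4.84 and 4.86 FPKM with PBS and 9.01, 8.38 and 8.26 FPKM with lactate in sgControl cells, a log2 rise of 0.72 ± 0.05. It was listed at 0 in all 6 sgHcar1 libraries, so no fold between the populations is given.

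Of the 39 other autophagy genes, 38 were tested. With lactate 18 were higher and 8 lower in sgControl cells, and 24 higher and 12 lower in sgHcar1 cells, with medians of 0.12 and 0.42. Beside these, 33.9% of all genes tested were higher and 31.9% lower in sgControl cells, and 36.8% and 35.4% in sgHcar1 cells. Epg5, a tether for fusion with the lysosome, rose by 1.68 ± 0.05 and the receptor gene Calcoco1 by 1.41 ± 0.07 in sgControl cells. In sgHcar1 cells Epg5 went from 3.29 to 10.98 FPKM and Calcoco1 from 6.97 to 17.3 FPKM. In sgHcar1 cells Atg13, a partner of Ulk1, rose by 1.72 ± 0.04 and Atg14, a partner of Becn1, by 1.64 ± 0.06. In sgControl cells Atg13 went from 9.17 to 23.4 FPKM and Atg14 from 4.60 to 7.75 FPKM. The mitophagy receptor gene Bnip3, a known hypoxia target, went against the list. It fell from 86.9 ± 5.93 to 14.1 ± 3.03 FPKM in sgControl and from 174 ± 36.2 to 39.7 ± 3.22 FPKM in sgHcar1 cells (SD, n = 3), with log2 changes of -2.56 ± 0.16 and -2.08 ± 0.16. Its relative Bnip3l fell by 1.04 on the log2 scale in sgHcar1 cells, and went from 62.8 to 41.8 FPKM in sgControl cells. Vamp8, a fusion protein gene, fell by 0.60 in sgControl cells, and went from 21.3 to 15.9 FPKM in sgHcar1 cells.

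The lactate effect itself was then compared between the populations, as the sgHcar1 effect minus the sgControl effect. Gla, Gabarapl1, Atg12, Map1lc3a, Nbr1 and Gabarap had the largest differences, all larger in sgHcar1 cells. The difference passed for 32 of 40 members, 25 higher and 7 lower, and the 7 include Optn, whose difference is only the reverse of its sgControl change. Of all genes, 59.1% passed, 30.4% higher and 28.7% lower. The median difference was 0.25 over the members and 0.01 over all genes. A difference of at least 2-fold was reached by 2 members, Gla and Gabarapl1, and by 7.78% of all genes, 4.19% higher and 3.59% lower.

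By role, 7 of 9 pump genes were higher and 1 lower, with a median of 0.68. Of 14 autophagy genes 9 were higher and 2 lower, with a median of 0.31, and of 13 lysosome genes 7 were higher and 4 lower, with a median of 0.19 that turned negative under equal-sum and quantile scaling, as given below. The differences were 1.84 ± 0.12 for Gla (limma adjusted p = 4.26e-07), 1.13 ± 0.05 for Gabarapl1 (limma adjusted p = 5.99e-08) and 0.92 ± 0.08 for Atg12 (limma adjusted p = 3.76e-06). Map1lc3a had 0.90 ± 0.15, Nbr1 0.85 ± 0.07 and Gabarap 0.84 ± 0.05.

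Some members responded less in sgHcar1 cells. Neu1 had a difference of -0.30 ± 0.12 (limma adjusted p = 0.0489), which missed the threshold with a pseudocount of 0.1 (adjusted p = 0.174) and when any of 8 libraries was left out (adjusted p of 0.0756 to 0.109). Mcoln1 had -0.28 ± 0.07, Sqstm1 -0.19 ± 0.05, Ctsb -0.18 ± 0.05 and Ctsl -0.12 ± 0.04. Tfeb and Tfe3 did not pass, with -0.08 ± 0.09 and 0.02 ± 0.07. Lamp1 had 0.19 ± 0.05, which turned to -0.21 with quantile normalization.

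The FPKM of a library did not sum to the same total in each group, with 310109 to 324562 in sgControl libraries, 362815 to 367977 in sgHcar1 libraries with PBS and 411996 to 421984 in those with lactate. When each library was rescaled to a sum of 1000000, the median difference over all genes moved by -0.206, and the share of calls that were higher fell from 51.4% to 30.1%. The members then gave 16 higher and 11 lower, with a median of 0.00865, still 0.206 above the median of all genes. The lysosome median turned to -0.043, and to -0.0965 with quantile normalization, while the pump median was 0.468 and 0.442. Differences of Mitf, Lamp1, Lamp2, Gaa and Atg7 changed sign with the rescaling, and those of Lamp1 and Gaa with quantile normalization. For lactate in sgHcar1 cells the shift over all genes was -0.122, the share of calls higher went from 50.9% to 40% and the members gave 29 higher and 6 lower.

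**Figure D3:**
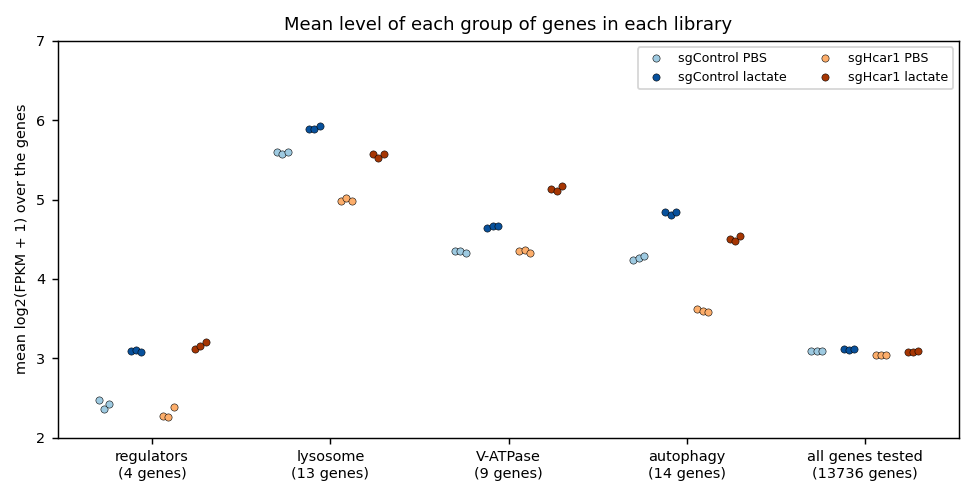
Mean log2(FPKM + 1) over the tested members of each role, for each of the 12 libraries, by group, and over all genes tested, which lie at 3.04 to 3.12; points are libraries and the axis does not start at 0. Every role mean is higher with lactate in both populations, and the lysosome mean is lower in sgHcar1 than in sgControl libraries in each treatment. The autophagy mean is 4.81 to 4.84 in sgControl and 4.48 to 4.54 in sgHcar1 libraries with lactate, but 4.93 to 4.96 and 4.82 to 4.89 without Optn, and the pump genes lie at 4.32 to 4.37 in all 6 PBS libraries, at 4.64 to 4.67 in sgControl and at 5.11 to 5.17 in sgHcar1 libraries with lactate.

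Before lactate, the populations already differed in these genes. With PBS most lysosome and autophagy members were lower in sgHcar1 cells. Against sgControl, 27 of 40 members were lower, 9 higher and 4 not passed, while 76.7% of all genes passed, 38.2% higher and 38.4% lower. The median log2 difference was -0.38 over the members and 0.01 over all genes, and 9 members were lower by at least 2-fold and 1 higher, against 11.5% and 8.68% of all genes (20.2% in all). The counts of lower members include Optn, listed at 0 in sgHcar1 cells. Whether these differences belong to the loss of Hcar1 or to the populations themselves cannot be told apart in this design.

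The lysosome genes were the most uniform, with 11 of 13 lower, 1 higher and a median of -0.58. Of the autophagy genes 9 of 14 were lower and 3 higher, with a median of -0.25, and of the pump genes 5 of 9 were lower and 3 higher, with a median of -0.22. Among lysosome members, Ctsa differed by -1.30 ± 0.04 and Lamp2 by -1.29 ± 0.03, the latter from 29.5, 31 and 29.7 FPKM in sgControl to 11.8, 11.8 and 11.4 FPKM in sgHcar1 cells. Lamp1 differed by -0.62 ± 0.03. The libraries of these 3 genes did not overlap between the populations.

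Map1lc3a had the largest fall with a level in both populations, -2.54 ± 0.10 (limma adjusted p = 1.37e-09). Gabarapl2 differed by -1.51 ± 0.06 and Wipi1 by -1.40 ± 0.06, the latter with 22.0 ± 0.712 FPKM in sgControl cells against 7.72 ± 0.599 FPKM in sgHcar1 cells. Sqstm1 did not pass, with -0.03 ± 0.03 (limma adjusted p = 0.454), but was called lower with each library rescaled to an equal sum, at -0.21, and with quantile normalization, at -0.23. The regulators split, with Tfe3 at -0.94 ± 0.05, Flcn at -1.21 ± 0.06, Tfeb at 0.77 ± 0.07 and Mitf at 0.93 ± 0.07.

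The members that were higher in sgHcar1 cells with PBS included Atp6v1d at 1.63 ± 0.04 (limma adjusted p = 4.8e-11), Ctsl at 0.85 ± 0.03, Atg5 at 0.42 ± 0.04 and Atp6v1e1 at 0.38 ± 0.05. Rescaling to an equal sum moved all genes by -0.165, took the share of calls higher from 49.9% to 38.6% and gave 7 members higher and 31 lower. The call of Gabarapl1, 0.13 ± 0.04 with overlapping libraries, then turned lower.

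**Figure D4:**
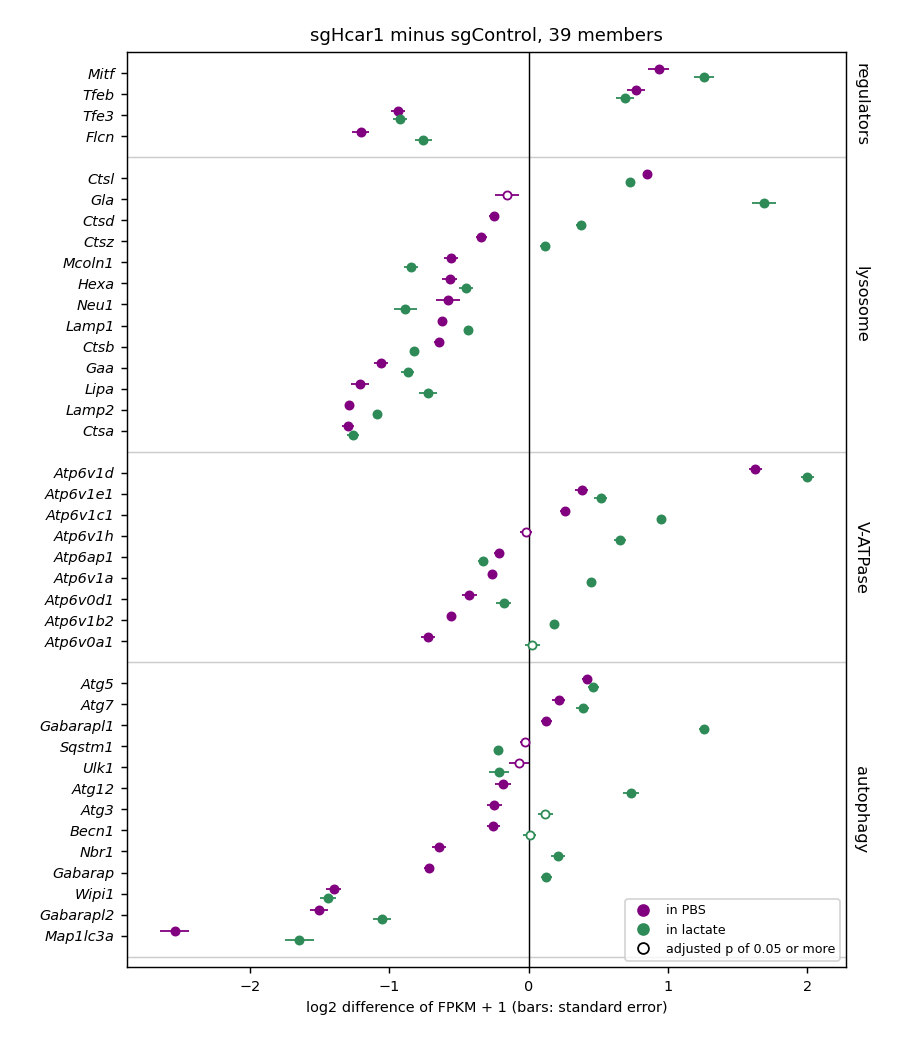
Log2 difference of FPKM + 1 between sgHcar1 and sgControl cells for 39 tested members by role, with PBS and with lactate; bars are standard errors, filled points passed the threshold and open points did not. Optn, listed at 0 in sgHcar1 libraries, is left out. Most lysosome points lie left of 0 in both treatments, Atp6v1d lies farthest right, and Map1lc3a lies farthest left.

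Other genes of the same pathways were also lower in sgHcar1 cells with PBS. Of 34 other lysosome genes 24 were lower and 3 higher, and of 38 other autophagy genes 22 were lower and 10 higher. Of all genes tested, 38.4% were lower and 38.2% higher. The tested lysosome genes include Ctsh, Gm2a (2.70 and 0.0105 FPKM in sgControl and sgHcar1 cells) and Manba (4.97 and 0.419 FPKM). These passed the filter only through sgControl libraries, where they are high. The acid ceramidase gene Asah1 differed by -2.35 ± 0.04, from 139.6 ± 1.68 to 26.7 ± 1.67 FPKM, and the protease gene Ctsh was at 22.1 ± 0.861 FPKM in sgControl and listed at 0 in all 3 sgHcar1 libraries. Among the exceptions, Laptm4b, a lysosomal membrane protein gene, differed by 2.07 ± 0.07, and Scarb2, a lysosomal membrane receptor gene, by 0.25 ± 0.04. Of the autophagy genes, Atg9b differed by -2.13 ± 0.07 and the lipid kinase gene Pik3c3 by -1.02 ± 0.07, while Bnip3 differed by 0.97 ± 0.16 and Wipi2 by 0.74 ± 0.03.

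Pump genes outside the members split in the same comparison, with 4 higher and 5 lower of 11. Atp6v0e2 was at 0.0975 ± 0.0383 FPKM in sgControl cells against 6.91 ± 0.671 FPKM in sgHcar1 cells, a log2 difference of 2.85 ± 0.09, and Atp6v1f differed by 1.48 ± 0.06. The accessory gene Atp6ap2 differed by -1.76 ± 0.06, from 44.8 ± 1.81 to 12.6 ± 0.564 FPKM, and Atp6v1b1 by -0.78 ± 0.08, from 0.794 to 0.0434 FPKM. Only sgControl libraries took Atp6v1b1 past the filter, and only sgHcar1 libraries took Atp6v0e2 past it. Both genes are in the counts of 4 higher and 5 lower. Of 19 nutrient-sensing genes 6 were higher and 8 lower. Sesn2 differed by 2.92 ± 0.08 and the mTORC1 activator gene Rheb by 0.67 ± 0.05, while Fnip2 differed by -0.96 ± 0.05 and Fnip1 by -0.66 ± 0.04.

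With lactate the populations were more evenly split. In sgHcar1 against sgControl cells, 18 members were higher, 19 lower (Optn, listed at 0 in sgHcar1 cells, included) and 3 not passed, with 82.2% of all genes called, 41.3% higher and 40.9% lower, and the member median was 0.02. At least 2-fold, 4 were higher and 6 lower, Optn again among the latter, beside 12.8% and 14.5% of all genes (27.4% in all). The lysosome genes were still mostly lower, 9 of 13 with 4 higher and a median of -0.73. The pump genes were mostly higher, 6 of 9 with 2 lower and a median of 0.45, but not under equal-sum scaling, as given below. The largest differences among the higher members were 2 ± 0.04 for Atp6v1d, 1.69 ± 0.08 for Gla, 1.26 ± 0.04 for Gabarapl1, 1.26 ± 0.07 for Mitf, 0.95 ± 0.03 for Atp6v1c1 and 0.73 ± 0.06 for Atg12. Map1lc3a stayed lower at -1.65 ± 0.10, Wipi1 at -1.44 ± 0.06, Ctsa at -1.26 ± 0.04, Lamp2 at -1.09 ± 0.03 and Gabarapl2 at -1.05 ± 0.06. Tfeb was higher by 0.69 ± 0.07, and Tfe3, Lamp1 and Sqstm1 were lower, with differences of -0.92 ± 0.05, -0.43 ± 0.03 and -0.22 ± 0.03.

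This comparison also moved with the scaling. Rescaling to an equal sum shifted all genes by -0.373 and took the share of calls higher from 50.3% to 31.7%. The members then gave 10 higher and 26 lower, and Ctsd, Ctsz, Atp6v1b2, Gabarap and Nbr1 changed from higher to lower. By role, the pump genes then gave 4 higher and 4 lower, with a median of 0.0492. The autophagy genes gave 2 higher and 10 lower, and the lysosome genes 2 higher and 10 lower. Quantile normalization turned Ctsz and Gabarap, and left 6 pump genes higher and 2 lower, with a median of 0.324. The lactate comparisons within a population and those between populations share libraries, so their values are set side by side and not correlated.

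Lastly, the promoter letters were set beside the lactate changes. The 12 tested members with CACGTG in the window had median log2 changes of 0.32 in sgControl and 0.51 in sgHcar1 cells, with 10 and 11 higher. The 21 tested members whose window lacks it had medians of 0.30 and 0.69, with 14 and 17 higher. Of the genes whose upstream stretch is printed, Gaa rose by 0.51 and 0.70, Atp6v1a by 0.33 and 1.04 and Atg3 by 0.31 and 0.68, and Lamp1 moved least.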

How the data were processed

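RNA of 12 MC38 libraries was sequenced from TruSeq libraries made with 1 ug of total RNA, per the labels. The authors deposited FPKM per gene, named as such in the file headers. HISAT2 2.0.5, featureCounts 1.5.0-p3 and GRCm38 are listed in the submitters' processing notes, and gene identifiers are those of the C57BL/6NJ annotation. Strandedness of the counting is not given in the sources used here. Columns were matched to groups by their letters, with the sgHcar1 letter read by elimination. No per-sample column was unused (0).

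Values were analysed as log2(FPKM + 1), with a pseudocount of 1, in limma 3.58.1 (R 4.3.3) with 1 mean per group, all 12 libraries and an intensity trend. Genes were kept at 1 FPKM or more in 3 or more libraries. Tests were two-sided, with Benjamini-Hochberg adjustment over 13736 genes within each of 5 comparisons and a threshold of 0.05. The model was tested on simulated data in which few genes changed and no scaling differed between libraries. That test does not bear on the scaling of the real libraries. The alternatives were a pseudocount of 0.1, no filter, a mean of 5 FPKM, median-ratio, equal-sum and quantile scaling, no trend, a replicate block, only the compared groups, and each library left out. The count of members past a fold of 2 in FPKM + 1 and the autophagy mean without Optn were chosen after seeing the data.

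The members and lists were chosen with earlier results of these data known. Named members are, per comparison, the 6 largest rises and falls past the threshold, with Tfeb, Tfe3, Lamp1 and Sqstm1 always; other lists give up to 2 in each direction. Some genes that this rule took are not reported here. Further members are named to account for the whole list. Promoters came from RefSeq GRCm38.p6. Python 3.11.15, pandas 2.3.3, numpy 2.4.6 and matplotlib 3.10.9 made the tables and figures.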

Additional observations from a re-analysis of the deposited data

Results flagged for a closer look

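The lactate effect of 32 members differed between the populations, by limma's test of the difference itself (sgHcar1 effect minus sgControl effect, 3 libraries per group, adjusted over all genes), a test that 59.1% of all genes also passed. Each value below is such a difference on the log2(FPKM + 1) scale, and positive values mean a larger rise or smaller fall in sgHcar1 cells. Of the regulators, Mitf had 0.33 and Flcn 0.45. The Mitf value depends on the added 1. Its means went from 0.513 to 1.75 FPKM in sgControl and from 1.88 to 5.59 FPKM in sgHcar1 cells. By these means its fold rise was smaller in sgHcar1 cells.

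The lysosome genes with a larger effect in sgHcar1 cells were Gla at 1.84, Ctsd at 0.63, Lipa at 0.49, Ctsz at 0.46, Lamp2 at 0.21, Gaa at 0.19 and Lamp1 at 0.19. Those with a smaller one were Neu1 at -0.30, Mcoln1 at -0.28, Ctsb at -0.18 and Ctsl at -0.12. Among the pump genes the values were 0.75 for Atp6v0a1, 0.74 for Atp6v1b2, 0.71 for Atp6v1a, 0.69 for Atp6v1c1, 0.68 for Atp6v1h, 0.37 for Atp6v1d, 0.25 for Atp6v0d1 and -0.11 for Atp6ap1, whose fall was larger in sgHcar1 cells.

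Of the autophagy genes, Gabarapl1 had 1.13, Atg12 0.92, Map1lc3a 0.90, Nbr1 0.85, Gabarap 0.84, Gabarapl2 0.45, Atg3 0.37, Becn1 0.26 and Atg7 0.17, while Sqstm1 had -0.19. Optn had -0.72, which is the reverse of its sgControl change because it is listed at 0 in all 6 sgHcar1 libraries. Groups of 3 libraries were not searched for single libraries that stand apart.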

How the results depend on the processing

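Of 66 named member results, 58 kept their direction and their side of the threshold under all alternatives run. The exceptions concern Lamp1, Atp6ap1, Tfeb, Neu1, Ctsl and Sqstm1. Named results are mostly the largest changes, and called members outside them also changed sign with equal-sum scaling. These were Mitf, Lamp2, Gaa and Atg7 for the difference, Mcoln1 for lactate in sgHcar1 cells and Gabarapl1 for the guide with PBS. For the guide with lactate they were Ctsd, Ctsz, Atp6v1b2, Gabarap and Nbr1. For lactate in sgControl cells the 2 members lower became 1 with no filter or only the compared groups, 0 with equal-sum or quantile scaling, and 1 to 3 when 1 library was left out. Lower members in sgHcar1 cells, 2 as reported, were 1 with a mean of at least 5 FPKM, 6 with equal-sum and 5 with quantile scaling. The difference of lactate effects, 25 higher and 7 lower, gave 16 higher and 11 lower with equal-sum scaling and 4 lower with no filter. The 18 members higher in the guide comparison with lactate became 10 with equal-sum scaling. Lamp1 changed direction: 0.12 in sgControl with quantile normalization, -0.08 (-0.083 equal-sum, -0.0843 quantile) in sgHcar1, and -0.043 and -0.21 for the difference. The Ctsl difference did not pass with no filter (limma adjusted p = 0.0742). The cause of these changes was not tested. Deviations of libraries with the same replicate number correlated at -0.0407 to 0.085, and those with different numbers at -0.102 to 0.0648. Not every library correlated best with its own number. Deviations from means of 3 libraries cannot decide whether equal numbers mark a pairing. With a replicate block, lactate in sgControl gave 29 members higher and 2 lower, lactate in sgHcar1 34 and 2, the difference 24 and 5, and the guide comparisons 9 and 27 with PBS and 18 and 19 with lactate; the Neu1 difference then had adjusted p = 0.0761. Depth in counts is unknown, so no interval for low values such as those of Rragd could be given. Leaving out a library keeps at least 2 in each group.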
